A study of Mus musculus with 23 samples.

Results

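Zinc finger protein (Zfp) genes make up one of the largest gene families of the mouse, and this account follows DNA captured by a methyl-CpG binding protein at their transcription start windows in heart and spleen. Members were the windows whose gene symbol was Zfp followed by a number and at most 1 further lower-case letter. This gave 361 windows with 360 symbols, of 41388 windows of 3 kb in each tissue's table. The label held: 358 of the windows matched a RefSeq symbol directly and 354 belonged to a protein-coding gene, although the shared name covers proteins of unlike function. DNA came from the left ventricle and the spleen of male C57Bl/6 mice, which were housed individually. In the high fibre group mice ate a diet rich in resistant starch (SF11-025), in the acetate group 100 mM magnesium acetate was added to the drinking water, and in the control group the diet lacked resistant starch. Each regimen began 3 weeks before a minipump was implanted and ran to the end of the study, and the labels do not give what the minipump delivered. Heart had 4 high fibre, 3 acetate and 4 control libraries, and spleen had 4 of each. Whether each library came from its own mouse is not stated in the labels, and p-values therefore reflect spread among libraries.

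Most Zfp proteins bind DNA through arrays of C2H2 zinc fingers, and many also carry a KRAB domain. The KRAB domain recruits the co-repressor Trim28, which brings the histone methyltransferase Setdb1, HP1 proteins and DNA methylation to retroelements and to imprinting control regions. Many KRAB zinc finger genes lie in tandem clusters that arose by duplication, so their sequences resemble each other. Other genes with a Zfp symbol encode RNA-binding proteins, ubiquitin or SUMO ligases, or developmental co-repressors.

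The promoters of these genes ranged from CpG-dense to almost CpG-free, and some of them are printed with every CG in capitals. Counts were per window of 3 kb and do not place the captured DNA within these promoters. The sequences are RefSeq promoters of build GRCm38.p6, 250 bases before to 50 bases after the start, read 5′ to 3′ on the gene's strand. Where a gene had several promoters, the promoter with most CpG sites is shown. The first 3 are those with most captured DNA in control hearts, among the tested members named in the text that have a promoter in the RefSeq table. Zfp523 lay at chr17:28177168-28177467 on the plus strand with 47 CpG sites, Zfp423 at chr8:87959546-87959845 on the minus strand with 21, and Zfp827 at chr8:79028187-79028486 on the plus strand with 23.
Zfp523: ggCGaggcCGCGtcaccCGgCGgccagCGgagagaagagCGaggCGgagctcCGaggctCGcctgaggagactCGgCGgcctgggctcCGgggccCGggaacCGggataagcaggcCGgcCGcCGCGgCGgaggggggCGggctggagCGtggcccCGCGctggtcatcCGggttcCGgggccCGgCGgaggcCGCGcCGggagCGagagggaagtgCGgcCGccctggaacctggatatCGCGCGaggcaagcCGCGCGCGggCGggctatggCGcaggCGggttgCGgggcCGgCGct
Zfp423: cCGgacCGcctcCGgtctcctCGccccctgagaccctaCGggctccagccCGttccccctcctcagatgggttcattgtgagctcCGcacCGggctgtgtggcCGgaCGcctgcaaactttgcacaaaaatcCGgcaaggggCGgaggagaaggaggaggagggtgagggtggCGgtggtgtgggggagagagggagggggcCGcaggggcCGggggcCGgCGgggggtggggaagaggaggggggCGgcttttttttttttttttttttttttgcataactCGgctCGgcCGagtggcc
Zfp827: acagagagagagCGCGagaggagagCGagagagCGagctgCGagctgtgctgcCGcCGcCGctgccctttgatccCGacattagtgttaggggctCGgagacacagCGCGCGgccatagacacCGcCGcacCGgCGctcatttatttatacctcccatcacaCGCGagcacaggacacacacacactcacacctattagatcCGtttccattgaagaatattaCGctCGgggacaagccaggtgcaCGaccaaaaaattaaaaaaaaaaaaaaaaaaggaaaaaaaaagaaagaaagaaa

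The next 3 have the least captured DNA in control hearts among the same members. Zfp931 lay at chr2:178078376-178078675 on the minus strand with 3 CpG sites, Zfp142 at chr1:74587979-74588278 on the minus strand with 16, and Zfp871 at chr17:32788238-32788537 on the minus strand with 12.
Zfp931: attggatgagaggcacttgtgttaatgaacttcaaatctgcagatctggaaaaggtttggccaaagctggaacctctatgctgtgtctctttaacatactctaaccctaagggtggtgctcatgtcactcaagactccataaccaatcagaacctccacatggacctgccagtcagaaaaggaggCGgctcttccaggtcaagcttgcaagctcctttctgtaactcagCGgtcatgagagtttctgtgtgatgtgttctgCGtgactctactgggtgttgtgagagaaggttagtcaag
Zfp142: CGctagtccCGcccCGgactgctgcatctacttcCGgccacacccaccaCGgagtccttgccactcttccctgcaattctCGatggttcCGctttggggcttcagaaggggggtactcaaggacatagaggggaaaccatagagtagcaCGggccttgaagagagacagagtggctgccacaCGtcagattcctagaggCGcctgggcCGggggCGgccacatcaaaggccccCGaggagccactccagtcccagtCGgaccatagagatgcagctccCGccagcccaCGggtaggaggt
Zfp871: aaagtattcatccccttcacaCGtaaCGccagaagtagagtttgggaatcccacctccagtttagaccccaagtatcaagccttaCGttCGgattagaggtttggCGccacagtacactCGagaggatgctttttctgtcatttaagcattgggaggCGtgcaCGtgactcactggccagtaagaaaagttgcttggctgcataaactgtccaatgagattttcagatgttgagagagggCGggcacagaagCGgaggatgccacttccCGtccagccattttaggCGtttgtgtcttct

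Zfp280d at chr9:72274638-72274937 on the plus strand with 37 CpG sites, and Zfp408 at chr2:91649742-91650041 on the minus strand with 16, are shown for the high fibre diet in heart. They had the smallest adjusted p among members called higher and lower.
Zfp280d: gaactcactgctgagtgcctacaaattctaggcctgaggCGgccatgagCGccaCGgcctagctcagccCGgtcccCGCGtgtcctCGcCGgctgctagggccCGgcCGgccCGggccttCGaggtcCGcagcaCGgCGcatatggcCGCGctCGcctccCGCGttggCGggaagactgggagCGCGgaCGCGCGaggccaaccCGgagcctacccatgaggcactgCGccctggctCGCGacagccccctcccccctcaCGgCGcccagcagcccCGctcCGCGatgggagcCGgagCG
Zfp408: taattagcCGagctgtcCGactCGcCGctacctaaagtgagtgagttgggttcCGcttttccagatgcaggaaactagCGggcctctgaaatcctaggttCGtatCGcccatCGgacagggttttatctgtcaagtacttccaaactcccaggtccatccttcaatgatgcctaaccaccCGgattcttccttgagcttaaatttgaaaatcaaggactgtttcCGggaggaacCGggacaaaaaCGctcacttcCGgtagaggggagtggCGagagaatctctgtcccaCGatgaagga

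Zfp426 at chr9:20492697-20492996 on the minus strand with 21 CpG sites, and Zfp651 at chr9:121759783-121760082 on the plus strand with 46, are shown for heart against spleen. Their values were known when they were picked.
Zfp426: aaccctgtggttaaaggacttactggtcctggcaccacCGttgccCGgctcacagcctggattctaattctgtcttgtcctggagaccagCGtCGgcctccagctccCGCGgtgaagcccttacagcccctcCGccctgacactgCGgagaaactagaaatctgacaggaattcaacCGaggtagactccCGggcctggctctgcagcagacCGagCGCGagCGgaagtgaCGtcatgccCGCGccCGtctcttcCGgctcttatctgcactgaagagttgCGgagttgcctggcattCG
Zfp651: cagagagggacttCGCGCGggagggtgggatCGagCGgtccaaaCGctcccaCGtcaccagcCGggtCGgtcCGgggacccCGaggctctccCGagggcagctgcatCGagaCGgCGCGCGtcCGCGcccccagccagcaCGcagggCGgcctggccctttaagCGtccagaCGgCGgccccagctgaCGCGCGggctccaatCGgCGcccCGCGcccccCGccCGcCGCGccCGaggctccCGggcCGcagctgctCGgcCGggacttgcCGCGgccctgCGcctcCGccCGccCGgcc

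Of 360 Zfp symbols, 297 had a RefSeq promoter. Promoters were called CpG-rich where at least 50% of bases were G or C and CpG observed over expected was at least 0.6. By this definition 158 Zfp promoters were CpG-rich and 139 were CpG-poor. The CpG-rich share was 53.2% for Zfp genes and 47.9% for the 17609 windows of all genes with a promoter. The median promoter held 15 CpG sites for Zfp genes and 14 for all. The family was also grouped on the genome: 20 clusters of at least 4 members, with neighbouring starts less than 500000 bases apart, held 172 symbols. Chromosome 7 carried 88 Zfp symbols, chromosome 17 carried 42 and chromosome 13 carried 36.

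The deposited values were raw read counts, with 4.12 to 8.60 M (mega) counts in the 11 heart libraries and 4.36 to 9.87 M in the 12 spleen libraries. The median Zfp window held 38 to 87 counts in a heart library and 21 to 42 in a spleen library. A level of 3 counts was used here as the floor and covers counting error only. Per M raw library counts it was 0.349 to 0.728 in heart and 0.304 to 0.687 in spleen, before scaling. Levels elsewhere are CPM (counts per M counts) after scaling. Scaled over both tissues, 3 counts come to fewer CPM than this in heart libraries and to more in spleen libraries. Counts are of captured DNA and no input library was used, so levels are relative between libraries and not absolute methylation. The window of Gm10800, which took the most reads, held 17.3% to 21.3% of the counts in high fibre hearts, 22.1% to 42.4% in acetate hearts and 36.8% to 50.05% in control hearts, so high fibre and control hearts did not overlap. It averaged 55.8% in high fibre, 51.9% in acetate and 55.8% in control spleens. Captured DNA at marker genes differed by tissue and does not measure expression: on the control diet 6 of 8 cardiomyocyte marker windows, Myh6 and Mybpc3 among them, were lower in heart, the other 2, Nppa and Actc1, were higher in heart, and so were 5 of 5 B cell marker windows. Of 5 T cell windows 1 was higher and 1 lower, of 3 general leukocyte windows 2 were higher, and of 2 erythroid windows 1 was higher and 1 lower. Beside these marker counts, 40.0% of all windows were higher and 32.7% lower in heart on the control diet.

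Zfp start windows held somewhat more captured DNA than the typical window, in both tissues. On a scale set over both tissues (TMM factors), the median over Zfp windows was 7.86 CPM in heart, against 5.95 CPM over all windows. In spleen it was 5.50 CPM for Zfp windows and 3.79 CPM for all. Fewer Zfp windows were nearly empty: 30 Zfp windows (8.31%) lay under 1 CPM in heart, against 20.25% of all windows, and 73 (20.2%) in spleen, against 34.2%. No test was made of these differences, and no cause was tested. Together the Zfp windows took 0.993% to 1.02% of the counts outside the 5 largest windows in heart and 0.969% to 1.01% in spleen, and the ranges of the tissues overlap. 8 members had 0 counts in all 23 libraries: Zfp341, Zfp518a, Zfp524, Zfp566, Zfp811, Zfp935, Zfp940 and Zfp953, named after their values were seen. They are 2.22% of Zfp windows, and 3704 windows of all genes (8.95%) also had 0 counts throughout.

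Zfp523 headed the heart ranking with a mean of 79.2 CPM over the 11 libraries, followed by Zfp532 at 72.4 CPM and Zfp423, a determinant of preadipocyte fate, at 69.1 CPM. Zfp385b at 65.05 CPM and Zfp827 at 61.1 CPM completed the first 5. In control hearts Zfp523 had 101.4, 85.4, 94.3 and 82.9 CPM, all above the range of Zfp423, whose libraries had 76.4, 68.1, 74.8 and 73.7 CPM. Zfp827, with 64.1, 61.6, 62.9 and 56.7 CPM, lay below both without overlap. The lowest tested windows in heart were Zfp507 at 0.887 CPM, Zfp871 at 0.981 CPM, Zfp189 at 0.985 CPM, Zfp142 at 1.03 CPM and Zfp931 at 1.05 CPM. In spleen Zfp532 led with 210.6 CPM, then Zfp462, a chromatin factor of embryonic stem cells, with 179.7 CPM, Zfp523 with 148.0 CPM, Zfp579 with 133.0 CPM and Zfp827 with 105.8 CPM. The lowest tested spleen windows were Zfp963 at 1.39 CPM, Zfp526 at 1.51 CPM and Zfp367, Zfp345 and Zfp874a at up to 1.71 CPM. Across 296 Zfp windows, promoter CpG number and captured level had a Spearman rho of 0.206 in heart and 0.221 in spleen. Over all 17609 windows rho was 0.198 in heart and 0.201 in spleen. These points share libraries and are given as a description.

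Heart and spleen differed at most Zfp windows. On the control diet 151 Zfp windows were higher in heart and 102 were lower, of 336 tested. That is 75.3% of the Zfp windows, and 72.7% of all windows passed the same test (40.0% higher and 32.7% lower), so the family was close to the background. The test was edgeR's quasi-likelihood test over all windows with Benjamini-Hochberg adjusted p under 0.05. On the high fibre diet 161 were higher and 109 lower (80.4%, background 80.7%), and on acetate 126 were higher and 99 lower (67.0%, background 63.0%). On all 3 diets 116 of the 336 Zfp windows were higher in heart, as were 29.6% of all windows, and 90 were lower, as were 26.9% of all windows. The median log2 fold change on the control diet was 0.28 over Zfp windows and 0.19 over all windows. In bulk tissue a different mix of cells and a different amount of captured DNA per cell cannot be told apart.

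**Figure D1:**
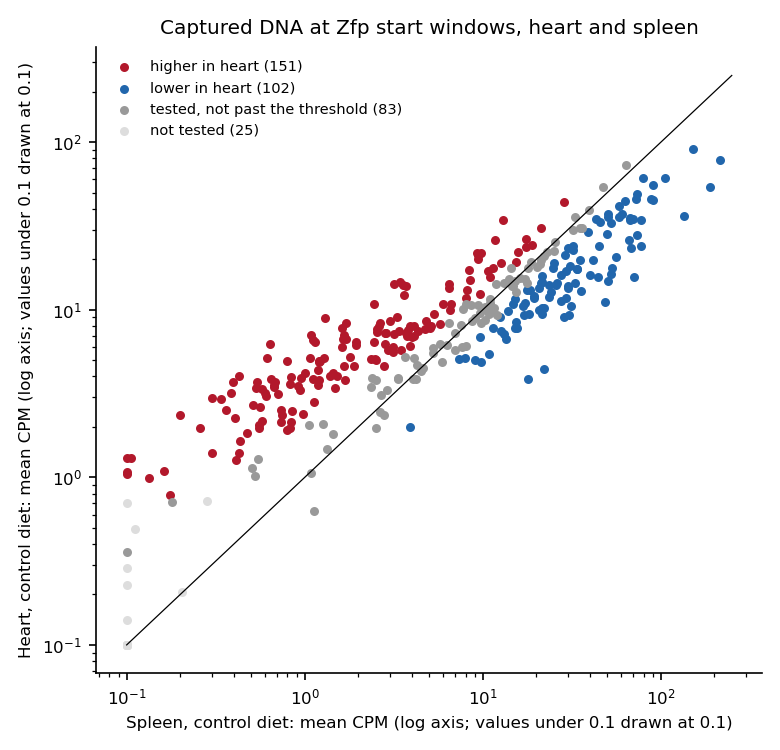
Mean captured DNA at each Zfp window in control hearts (vertical, CPM, log axis) against control spleens (horizontal, CPM, log axis), coloured by the edgeR call, with the line of equal level and means under 0.1 CPM drawn at 0.1. The 151 windows higher in heart lie mostly towards the low end of the spleen axis and the 102 lower in heart towards the high end.

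The split of directions followed abundance and depended on the scaling. With the members ordered by mean CPM and divided at 3.47, 8.41 and 18.6 CPM into ranges of 84 windows, 65 windows were higher and 1 lower in the lowest range, 57 and 5 in the next, 21 and 34 in the next, and 8 and 62 in the highest. The median log2 fold changes of the ranges were 1.45, 0.79, -0.16 and -0.71. Over all windows in the same ranges the medians were 1.35, 0.61, -0.24 and -0.71, so the Zfp windows moved with the rest of their range. Scaling by library totals alone shifted the median of all windows to 1.03 and gave 249 Zfp windows higher and 21 lower. Cyclic loess, which removes a trend with abundance, brought that median to 0.05 and gave 90 higher and 78 lower. The part of capture or depth in the abundance trend was not tested. CpG-poor promoters had 70 windows higher and 26 lower of 130, with a median of 0.78, and CpG-rich promoters had 62 windows higher and 51 lower of 148, with a median of 0.19. The same split by promoter was not made over all windows, so whether it is particular to Zfp genes was not tested.

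Among Zfp windows above the median abundance of the family, Zfp426, Zfp493, Zfp263, Zfp709 and Zfp113 were the most heart-biased on the control diet. Gene coordinates are those of RefSeq on GRCm38.p6. Zfp426 (chr9:20468549-20492746) had 13.4, 15.9, 14.1 and 13.6 CPM in control hearts, against 1.86, 4.22, 3.75 and 2.79 CPM in control spleens. Every heart library lay above every spleen library, and the log2 fold change was 2.02 ± 0.192 (SE, edgeR adjusted p = 1.02e-10). Its promoter, printed above, is CpG-rich. Zfp493 (chr13:67779693-67789082) had 13.4, 15.0, 13.4 and 17.04 CPM in hearts, against 2.33, 4.36, 3.58 and 3.44 CPM in spleens, a log2 fold change of 1.97 ± 0.198 (edgeR adjusted p = 2.92e-10). Zfp263 had 14.1, 14.2, 13.1 and 14.5 CPM in hearts and 2.80, 3.38, 5.05 and 3.01 CPM in spleens, also without overlap. Zfp451, whose human homolog is a SUMO ligase, averaged 34.5 ± 2.34 CPM in hearts and 13.03 ± 2.04 CPM in spleens (SD, n = 4 each), the most captured of the heart-biased windows given here. Zfp709, Zfp850, Zfp618, Zfp868 and Zfp664 had log2 fold changes of 1.80, 1.22, 1.13, 1.12 and 1.12. On the high fibre diet Zfp426 had a log2 fold change of 2.01 and on acetate of 1.48, and Zfp493 had 2.35 and 1.69, all past the test.

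The most spleen-biased windows were Zfp651, Zfp768, Zfp703, Zfp579 and Zfp462. Zfp651 (chr9:121759319-121771742) had 5.04, 4.16, 5.30 and 3.28 CPM in control hearts, against 34.7, 13.2, 23.1 and 16.98 CPM in control spleens. The tissues did not overlap, and the log2 fold change was -2.21 ± 0.283 (edgeR adjusted p = 3.17e-08). Its promoter held 46 CpG sites, close to the 47 of Zfp523. Zfp768 (chr7:127342795-127345314) had 17.7, 14.1, 17.4 and 13.6 CPM in hearts and 103.7, 51.7, 65.0 and 62.1 CPM in spleens, a log2 fold change of -2.14 ± 0.206 (edgeR adjusted p = 1.34e-10). Zfp462 (chr4:54944491-55083563) had 58.95, 50.8, 53.3 and 52.3 CPM in hearts and 244.4, 166.4, 167.7 and 178.7 CPM in spleens, a log2 fold change of -1.81 ± 0.172 (edgeR adjusted p = 1.13e-10). Spleen control replicate 1 was the highest library at all 3 of these windows. Zfp703, a co-repressor, averaged 11.2 ± 1.74 CPM in hearts and 48.4 ± 17.7 CPM in spleens, and its relative Zfp503 had a log2 fold change of -1.61. Zfp768 had -2.83 on the high fibre diet and -2.27 on acetate, and Zfp651 had -2.72 and -2.26. Each of the 10 heart-biased and 10 spleen-biased windows chosen by this rule kept its direction and its call on all 3 diets, under every setting tried for this comparison: DESeq2 size factors, library totals, cyclic loess, no low-count filter, limma voom, DESeq2, the replicate block and each library left out.

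**Figure D2:**
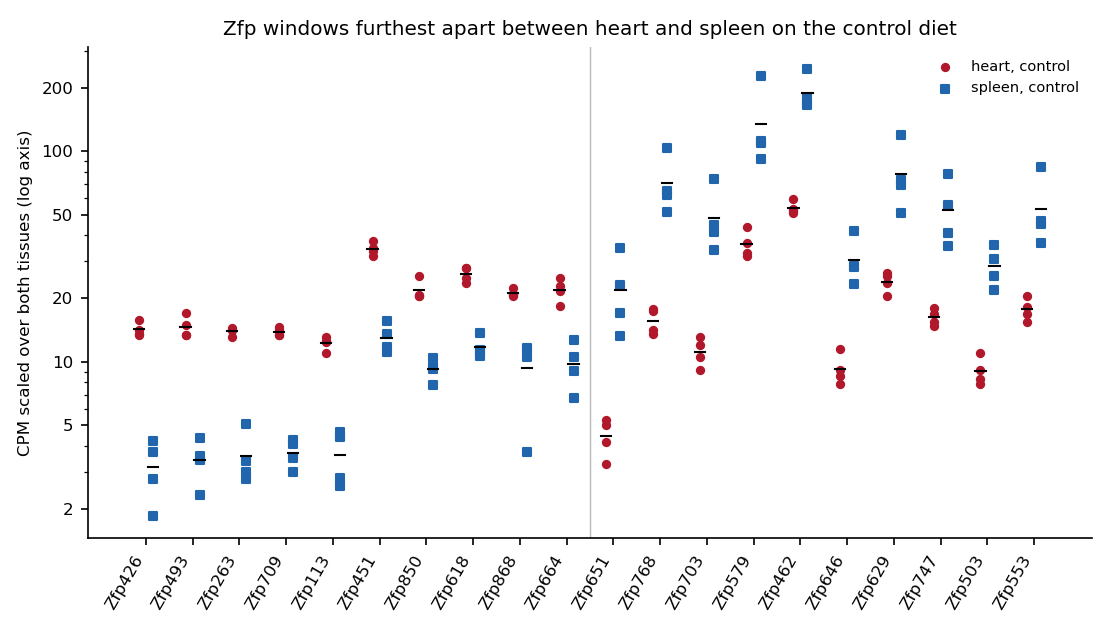
Captured DNA of the 10 most heart-biased and 10 most spleen-biased Zfp windows in control hearts and control spleens (CPM, log axis), 1 point per library, with a bar at the mean. Zfp426 sits at 13.4 to 15.9 CPM in heart and 1.86 to 4.22 CPM in spleen, and Zfp768 at 13.6 to 17.7 CPM in heart and 51.7 to 103.7 CPM in spleen.

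The counts of the gene lists that follow stand beside 40.0% of all windows higher and 32.7% lower in heart on the control diet. Among the silencers of imprinted genes and retroelements, 3 of 8 were higher in heart and 2 were lower on the control diet, with a median log2 fold change of 0.08. The higher ones were retroelement silencers: Zfp932 had 5.64, 7.11, 6.63 and 7.07 CPM in hearts and 0.932, 1.27, 0.978 and 1.29 CPM in spleens (log2 fold change 2.28). Zfp708 had 1.72 and Zfp819 had 1.00. Zfp708 averaged 0.95 CPM in control spleens, near the floor. Zfp809, which silences retroviruses in embryonic stem cells, was lower in heart, with 13.1, 13.6, 13.6 and 13.5 CPM in hearts against 27.3, 26.6, 32.6 and 34.0 CPM in spleens (log2 fold change -1.15 ± 0.143, edgeR adjusted p = 2.02e-08, and -0.25 with adjusted p = 0.166 under library totals). The heart libraries had an SD of 0.221 CPM and none reached the spleen range. Zfp568, which represses a placental Igf2 transcript, had -0.39 (edgeR adjusted p = 0.00741), with 0.14 under cyclic loess and 0.51 under library totals. The imprint keepers Zfp57 and Zfp445 did not pass: Zfp57 averaged 10.6 ± 1.31 CPM in hearts and 9.40 ± 1.35 CPM in spleens (SD, n = 4 each), and Zfp445 had 10.5, 10.9, 11.05 and 11.4 CPM in hearts and 10.5, 12.7, 8.15 and 12.7 CPM in spleens, with the heart range inside that of spleen. Their log2 fold changes were 0.16 ± 0.177 and -0.01 ± 0.173, and under library totals both passed, at 1.04 and 0.86. On high fibre Zfp57 passed with TMM scaling (0.52, edgeR adjusted p = 0.00897), and on acetate it did not.

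Of 7 tested genes of the pluripotency and early embryo list, 4 were lower in heart and 2 higher, with a median of -0.94. Zfp42 (Rex1), a marker of pluripotent cells, had 24.8, 22.4, 19.0 and 16.5 CPM in hearts and 60.8, 51.7, 54.3 and 56.3 CPM in spleens, a log2 fold change of -1.41 ± 0.153 (edgeR adjusted p = 1.38e-09). The tissues lay far apart, with no overlap. Zfp296, Zfp352 and Zfp462 were the others lower in heart, and Zfp143 (1.03) and Zfp322a (0.65) were higher. Zfp143 averaged 0.794 CPM in control spleens, near the floor. Zfp281 lay at or under the floor in both tissues and gets no fold.

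In the blood and lymphocyte list 2 of 6 were lower in heart and 1 higher, with a median of -0.01. Zfp335, needed for T cell maturation, had 18.04, 14.6, 15.02 and 15.2 CPM in hearts against 59.0, 37.5, 42.7 and 38.0 CPM in spleens (log2 fold change -1.47 ± 0.216, edgeR adjusted p = 3.79e-07). Zfp318, which controls IgD in B cells, had -0.42, with 0.22 under cyclic loess and 0.48 under library totals. Zfp683 (Hobit), a factor of tissue-resident T cells, had -0.16 (0.71, past the test, under library totals) and Zfp91 had 0.75, and neither passed with TMM scaling on the control diet. On high fibre Zfp683 passed with TMM scaling (-0.64, edgeR adjusted p = 0.000697), and on acetate it did not. Zfp36 (tristetraprolin), which drives mRNA decay, was called higher in heart, at 1.65 ± 0.765 CPM against 0.432 ± 0.415 CPM in spleen (SD, n = 4 each), so its spleen level is near the floor, and under cyclic loess the call was lost (0.13, adjusted p = 0.851). In the mesenchyme and fat list 2 of 6 were higher, Zfp467 (2.21) and Zfp395, with a median of 0.17. Zfp467 averaged 0.794 CPM and Zfp395 averaged 0.935 CPM in control spleens, also near the floor. Zfp423 had 0.20 and Zfp521 had 0.14, and neither passed with TMM scaling on the control diet. On high fibre Zfp521 passed (0.79, edgeR adjusted p = 0.0154) and Zfp423 did not (0.03), and on acetate neither passed. On the control diet both calls turn on the scaling. There Zfp423 passed with DESeq2's size factors (0.31), cyclic loess (0.97) and library totals (1.09). Zfp521 had -0.86 under cyclic loess and 0.95 under library totals, past the test each time.

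In the list of RNA-binding and other proteins not known for binding DNA, 4 of 6 were higher in heart and 0 lower, with a median of 0.68. They were Zfp36, the spindle protein Zfp207 (1.45), Zfp598 (0.75), which acts on stalled ribosomes, and the double-stranded RNA-binding Zfp346 (0.60). In the germline list 2 of 5 were higher and 1 lower, with a median of 0.03; the meiotic factor Zfp541 had 0.87, a call that cyclic loess ended (0.076, adjusted p = 0.805), and Zfp105 had 0.72. In the heart and nervous system list 3 of 8 were higher and 4 lower, with a median of -0.42. Zfp418 (1.90), Zfp804a (1.21) and the cardiac transcription factor Zfp260 were higher in heart, Zfp260 at 3.23, 4.70, 3.39 and 3.91 CPM in hearts and 1.398, 1.97, 0.978 and 2.37 CPM in spleens (log2 fold change 1.06, and -0.09 under cyclic loess). Zfp418 averaged 0.67 CPM in control spleens, near the floor. Zfp703, Zfp503, Zfp536 (-1.15) and Zfp365 (-0.68) were lower. Among 13 tested genes of the KRAB co-repressor pathway, which are not Zfp windows, 6 were higher in heart and 4 lower, with a median of 0.12. Setdb1 (1.95), Smarcad1 (2.36), Cbx5 (1.42) and Cbx1 (0.86) were among the higher, and Trim28 itself (-0.43), Chd3 (-1.33), Chd4 (-0.50) and Daxx (-1.57) were the lower. Setdb1 averaged 0.729 CPM in control spleens, again near the floor. All these medians stand beside 0.28 over all tested Zfp windows, and the counts beside 40.0% of all windows higher and 32.7% lower.

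Gene clusters did not move alike. Of the 20 clusters, 14 had a median log2 fold change above 0 and 6 below 0, and the clusters described here were singled out after their values were seen. On chromosome 7, the span from Zfp553 to Zfp646 (chr7:127233061-127885996) held 9 tested Zfp windows, of which 7 were lower in heart and 1 higher, with a median of -1.54. Zfp768, Zfp629, Zfp646, Zfp747 and Zfp553 were among the lower, and the exception Zfp668 had 1.11, 1.09, 1.32 and 0.757 CPM in hearts, against 1 spleen library of 0.326 CPM and 3 at 0. Other genes' windows in the span also leaned lower, 16 lower and 4 higher of 25, with a median of -0.73. The lean held on high fibre, with 8 lower and 1 higher, and on acetate, with 7 lower and 1 higher. On the control diet it was 6 lower and 1 higher under cyclic loess, and 5 lower and 2 higher under library totals.

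Other clusters leaned higher in heart. Over all windows 40.0% were higher and 32.7% lower on the control diet. From Zfp871 to Zfp414 on chromosome 17, 9 of 12 Zfp windows were higher and 2 were lower (median 1.34), while of 11 windows of other genes there 4 were higher and 4 lower (median 0.22). Under cyclic loess 3 were higher and 1 lower. From Zfp640 to Zfp273 on chromosome 13, 12 of 18 were higher and 3 lower, with a median of 1.22. Windows of other genes in that span leaned the same way, with 5 of 10 higher and 1 lower (median 0.76). From Zfp954 to Zfp772 on chromosome 7, 3 of 4 were higher with a median of 2.00. Zfp773 there had 4.94, 7.55, 5.30 and 7.20 CPM in hearts, against 0.699, 0.985, 0.652 and 0.215 CPM in spleens. Its spleen levels lay near the floor. Under cyclic loess that cluster had 1 higher and 1 lower. From Zfp84 to Zfp146 on chromosome 7, 8 of 12 were lower and 2 higher, with a median of -0.47, and under library totals 8 were higher and 1 lower. Cluster members resemble each other in sequence, and how reads with several alignments were counted is not stated, so counts may be shared among them. The starts of Zfp758 and Zfp944, and of Zfp942 and Zfp943, lie within 3 kb of each other, and for 46 of 278 tested Zfp windows another RefSeq gene starts within 3 kb.

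**Figure D3:**
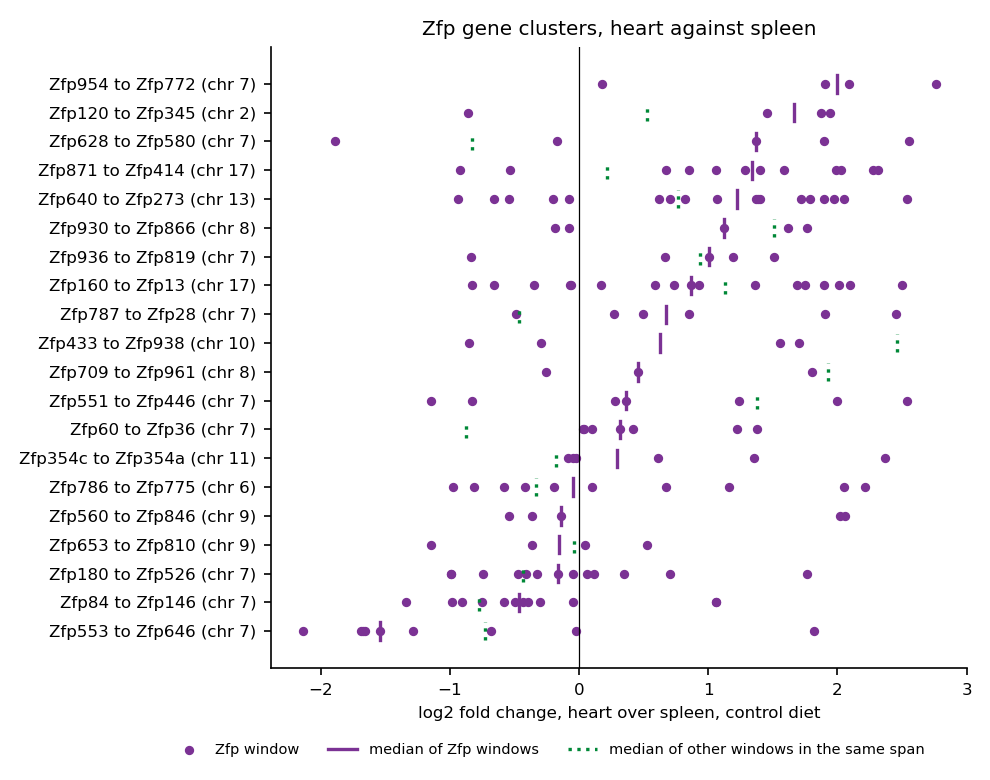
Log2 fold change of heart over spleen on the control diet for the tested Zfp windows of the 20 gene clusters, 1 point per window, with a bar at the Zfp median and a dotted bar at the median of other genes' windows in the same span where any was tested. Clusters run from a median of 2.00 (Zfp954 to Zfp772) to -1.54 (Zfp553 to Zfp646).

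Across diets the tissue difference kept its sign at 305 of 336 Zfp windows (90.8%), and at 89.6% of all windows. Zfp626, on chromosome 7, was the 1 Zfp window of 336 called in opposite directions, beside 26 of 33982 windows of all genes. It had 13.7, 12.6, 13.7 and 12.7 CPM in high fibre hearts, against 20.3, 16.2, 20.6 and 19.1 CPM in high fibre spleens, a log2 fold change of -0.52 (edgeR adjusted p = 0.000595). On the control diet it had 19.8, 19.5, 18.9 and 19.4 CPM in hearts and 14.2, 17.2, 16.3 and 13.8 CPM in spleens, a log2 fold change of 0.32 (edgeR adjusted p = 0.0287). On acetate it had 20.8, 14.1 and 14.1 CPM in hearts and 16.8, 16.4, 14.8 and 14.3 CPM in spleens, which overlap (log2 fold change 0.04). The difference between the high fibre and control contrasts was -0.84 ± 0.187 and did not pass (edgeR adjusted p = 0.0781).

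The high fibre diet changed captured DNA at a share of Zfp windows in heart close to that of all windows. Against control hearts 34 of 334 tested Zfp windows were higher and 43 were lower. That is 23.05%, and 26.2% of all windows passed (12.6% higher and 13.6% lower). The groups did not overlap at 51 Zfp windows that were higher and 58 that were lower, and at 33.7% of all windows. The median log2 fold change was 0.01 over Zfp windows and 0.02 over all windows. The count rested on single libraries: without acetate replicate 1, which only shares the estimate of spread, 131 Zfp windows were called, and without high fibre replicate 4, high fibre replicate 3, control replicate 1 or control replicate 3 the counts were 28, 45, 29 and 40. In the sentences on diet, CPM are scaled within the tissue, so a window's level differs from that in the comparison of tissues.

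As between tissues, direction followed abundance. In the lowest of the 4 ranges 19 of 82 Zfp windows were higher and 0 lower, in the next 12 of 84 were higher and 0 lower, in the next 1 was higher and 12 were lower, and in the highest 2 were higher and 31 lower. The median log2 fold changes were 0.49, 0.18, -0.12 and -0.28, and those of all windows in the same ranges were 0.55, 0.12, -0.12 and -0.30. High fibre and control hearts also differed without overlap in the share of reads at Gm10800, and the part of that share in these changes was not tested. Scaling by library totals alone put the median of all windows at 0.69 and called 257 Zfp windows higher and 0 lower. With cyclic loess 52 were called, and with 1 surrogate variable in the model 0 were.

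**Figure D4:**
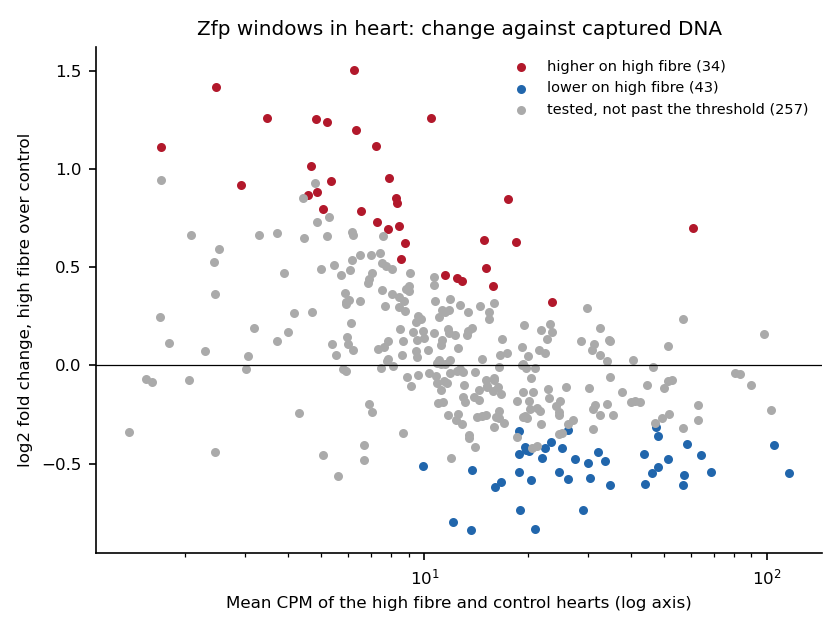
Log2 fold change of high fibre over control hearts (vertical) against the mean CPM of the high fibre and control hearts (horizontal, log axis) for each tested Zfp window, coloured by the edgeR call. The 34 higher windows lie mostly at low and the 43 lower windows mostly at high abundance.

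The windows with more captured DNA in high fibre hearts were headed by Zfp280d, Zfp804a and Zfp91. Zfp280d (chr9:72274618-72363779) had 75.4, 74.4, 75.2 and 77.0 CPM in high fibre hearts, against 41.7, 49.4, 44.7 and 49.9 CPM in control hearts. The groups lay far apart, and the log2 fold change was 0.70 ± 0.125 (edgeR adjusted p = 0.00462). Zfp280d lay in the range of highest abundance, where 2 windows were higher and 31 lower. Zfp804a (chr2:82050129-82259879), whose human homolog is linked to schizophrenia risk, had 15.8, 11.95, 14.4 and 17.2 CPM in high fibre hearts, against 4.57, 6.12, 5.78 and 7.83 CPM in control hearts (log2 fold change 1.26 ± 0.231, edgeR adjusted p = 0.00506). Zfp91 (chr19:12766939-12796123), a ubiquitin ligase of the NF-kB pathway, had 7.28, 6.88, 10.6 and 12.9 CPM in high fibre hearts and 2.44, 3.97, 1.78 and 4.202 CPM in control hearts (log2 fold change 1.504 ± 0.325, edgeR adjusted p = 0.00645). High fibre replicates 3 and 4 were the highest libraries for Zfp91, and the groups did not overlap. Zfp946, Zfp40, Zfp770, Zfp62, Zfp37, Zfp825 and Zfp654 followed, with log2 fold changes of 1.12, 0.85, 1.25, 0.63, 1.20, 0.94 and 0.50.

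The windows with less captured DNA in high fibre hearts were headed by Zfp408, Zfp7 and Zfp553. Zfp408 (chr2:91642756-91650051), whose human homolog is a retinal disease gene, had 10.4, 8.69, 10.1 and 9.61 CPM in high fibre hearts, against 20.1, 16.03, 20.4 and 14.1 CPM in control hearts. No high fibre library reached the control range, and the log2 fold change was -0.84 ± 0.144 (edgeR adjusted p = 0.00383). Zfp7 had 14.9, 12.3, 12.4 and 13.5 CPM in high fibre hearts and 17.96, 21.2, 21.8 and 20.1 CPM in control hearts (log2 fold change -0.59 ± 0.119, edgeR adjusted p = 0.00549). Zfp553 (chr7:127233061-127238197) had 18.02, 13.95, 14.7 and 13.6 CPM in high fibre hearts and 30.9, 25.6, 23.3 and 27.7 CPM in control hearts (log2 fold change -0.83 ± 0.175, edgeR adjusted p = 0.00596). Zfp768, Zfp593, Zfp853, Zfp276, Zfp61, Zfp316 and Zfp629 followed, with -0.74, -0.80, -0.58, -0.61, -0.56, -0.48 and -0.74. Zfp593, whose yeast homolog works in maturation of the large ribosomal subunit, had 10.6, 7.24, 7.71 and 9.75 CPM in high fibre hearts against 19.6, 13.6, 14.7 and 13.9 CPM in control hearts. The groups did not overlap at any of these 10 higher and 10 lower windows. With 1 surrogate variable none of the 20 passed, with library totals 10 kept both sign and call (Zfp7, Zfp853, Zfp276, Zfp61 and Zfp316 turned to values above 0), cyclic loess lost Zfp316 and Zfp825, and without high fibre replicate 4 Zfp62 was lost.

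**Figure D5:**
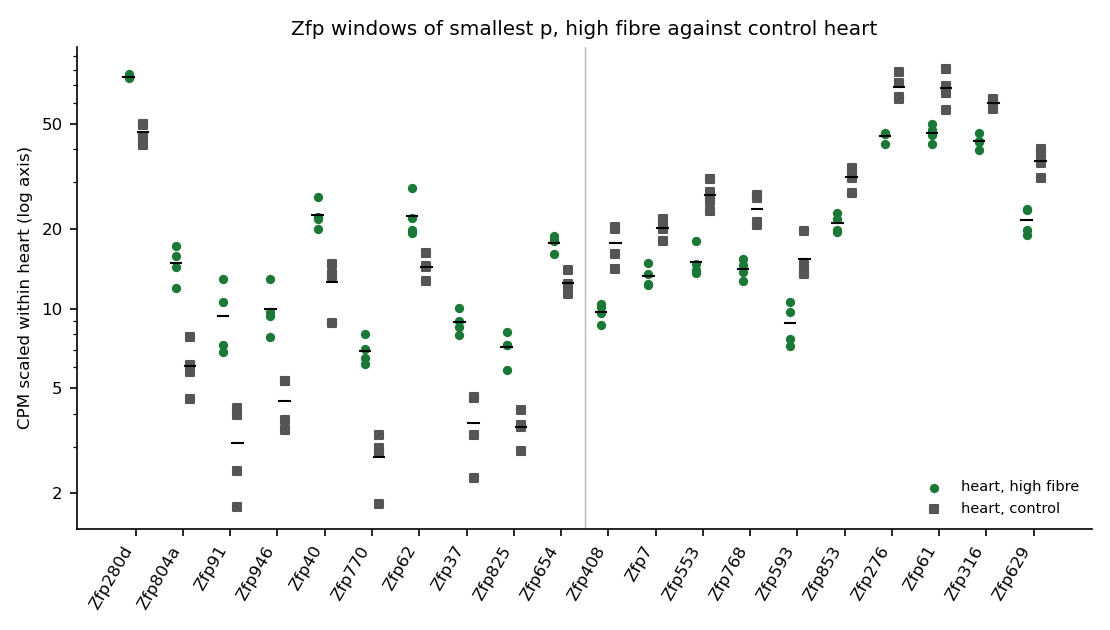
Captured DNA of the 10 higher and 10 lower Zfp windows with the smallest p in heart (CPM scaled within heart, log axis), 1 point per library for the high fibre and control hearts, with a bar at the mean. High fibre hearts sit at 74.4 to 77.0 CPM at Zfp280d and control hearts at 41.7 to 49.9 CPM.

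Acetate hearts lay between or across the other groups at these windows. At Zfp280d the 3 acetate libraries had 37.0, 60.2 and 60.3 CPM, and at Zfp408 they had 17.9, 13.9 and 13.9 CPM. At Zfp91 they had 0.89, 6.51 and 4.79 CPM. Acetate replicate 1 stood apart from the other 2 libraries each time, inside or past the control range.

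Members of the functional lists changed in both directions with high fibre in heart. Of the silencers of imprinted genes and retroelements only Zfp708 of 8 tested passed, with 10.9, 8.15, 9.85 and 13.9 CPM in high fibre hearts and 4.11, 8.10, 5.33 and 6.11 CPM in control hearts (log2 fold change 0.83 ± 0.233, edgeR adjusted p = 0.0162). Its second libraries almost meet, at 8.15 and 8.10 CPM. Zfp57 had 0.14, Zfp445 had -0.13, Zfp809 had -0.13 and Zfp568 had -0.30, and the list's median was -0.06. Of 6 tested pluripotency and early embryo genes 2 were higher, Zfp322a (0.54) and Zfp352 (0.32), and 2 lower, Zfp296 (-0.51) and Zfp462 (-0.54), with a median of -0.28. Zfp462 had 54.2, 53.1, 57.7 and 57.8 CPM in high fibre hearts against 89.0, 76.7, 80.4 and 79.1 CPM in control hearts, with no overlap.

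In the blood and lymphocyte list Zfp91 was higher and Zfp683 lower of 6, with a median of 0.18. Zfp683 had 17.7, 18.5, 15.98 and 16.5 CPM in high fibre hearts and 28.2, 20, 22.2 and 22.15 CPM in control hearts (log2 fold change -0.43 ± 0.144, edgeR adjusted p = 0.0317, with -0.26 and the call lost under cyclic loess, and 0.26 under library totals). Beside it, 3 of 5 T cell marker windows were lower in high fibre hearts, as were 2 of 5 B cell, 2 of 3 leukocyte, 2 of 8 cardiomyocyte and 1 of 2 erythroid windows. Of these markers 1 B cell and 1 leukocyte window were higher, and their part in the Zfp results was not tested. Over all windows 12.6% were higher and 13.6% lower in high fibre hearts. In the highest abundance range 2.22% of all windows were higher and 40.9% lower. In the RNA-binding list Zfp207 (0.46) was higher and Zfp346 (-0.40) lower of 6, with a median of 0.05. In the germline list only Zfp37 was higher of 5, with a median of 0.17, and in the heart and nervous system list only Zfp804a of 8, with a median of -0.07. None of 6 mesenchyme and fat genes passed edgeR's test at an adjusted p under 0.05, with a median of 0.22. Of 13 KRAB co-repressor genes 5 were lower, Trim28 (-0.46), Chd3 (-0.54), Hdac1 (-0.36), Morc3 (-0.48) and Daxx (-0.90), and 2 were higher, Atf7ip (0.36) and Atrx (0.35), with a median of -0.11. Over all tested Zfp windows the median was 0.01.

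The chromosome 7 span from Zfp553 to Zfp646, lower in heart than in spleen, was also lower in high fibre than in control hearts. There 5 of 9 Zfp windows were lower and 0 higher, with a median of -0.47: Zfp553 (-0.83), Zfp768 (-0.74), Zfp629 (-0.74), Zfp747 (-0.58) and Zfp771 (-0.41). Windows of other genes in the span behaved alike, 15 of 24 lower and 0 higher with a median of -0.47. From Zfp160 to Zfp13 on chromosome 17 (chr17:21008941-23599755), 7 of 17 Zfp windows were higher and 0 lower, with a median of 0.56: Zfp946, Zfp40, Zfp948, Zfp760, Zfp677, Zfp945 and Zfp942. Other genes there included 9 of 37 that were higher and 0 that were lower, and their median was 0.62. With cyclic loess the chromosome 7 cluster had 4 lower and the chromosome 17 cluster 3 higher. Library totals gave 0 lower on chromosome 7, with a median of 0.22. By promoter, 13 of 146 CpG-rich windows were higher and 23 lower (median -0.06), and 17 of 130 CpG-poor windows were higher and 9 lower (median 0.13). Here too the split by promoter was not made over all windows, so it describes the Zfp windows only.

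Acetate gave no Zfp window past the test in heart. Of 334 windows 0 passed edgeR's test against control (0% of all windows), and 13 had an unadjusted p under 0.05 (3.89%, beside 2.50% of all windows); DESeq2 and limma voom also called 0. The smallest p went to Zfp322a (log2 fold change 0.63), Zfp398 (1.03) and Zfp825 (0.71) upward and Zfp853 (-0.39), Zfp346 (-0.29) and Zfp114 (-0.35) downward, all at an edgeR adjusted p of 0.9997. Without acetate replicate 1, 4 windows were higher and 5 lower.

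High fibre and acetate hearts differed at 4 Zfp windows, Zfp593, Zfp276, Zfp707 and Zfp462, all lower on high fibre. That is 1.20% of 334, beside 1.38% of all windows (1.19% lower), and each had an edgeR adjusted p of 0.0488. Zfp276 had 46.2, 42.0, 45.95 and 45.7 CPM in high fibre hearts, against 96.6, 59.1 and 58.4 CPM in acetate hearts. Zfp462 had 54.2, 53.1, 57.7 and 57.8 CPM in high fibre hearts and 132.6, 65.5 and 73.1 CPM in acetate hearts. Zfp707 had 36.95, 31.3, 31.8 and 39.7 CPM in high fibre hearts and 76.0, 46.8 and 45.4 CPM in acetate hearts. Acetate replicate 1 was the highest library at all 4 windows, Zfp593 included, and the groups did not overlap. Without acetate replicate 1 the count was 0, without replicate 2 it was 28 and without replicate 3 it was 39. It was also 0 without any 1 of the 4 high fibre libraries and without control replicate 2, 3 or 4. The 4 calls were lost with DESeq2's size factors in edgeR, with library totals, with limma voom, with 1 surrogate variable and with the spread of those diets alone, and cyclic loess kept 2 of them.

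In spleen no diet moved a Zfp window past the test. Of 260 tested windows edgeR called 0 for high fibre against control, 0 for acetate against control and 0 for high fibre against acetate, as it did of all windows (0%). At an unadjusted p under 0.05 there were 5, 5 and 7 Zfp windows (1.92%, 1.92% and 2.69%), beside 2.02%, 3.51% and 3.31% of all windows. DESeq2 and limma voom called 0 in each. The smallest p went to Zfp865 (0.52), Zfp618 (0.43) and Zfp518b (0.45) upward and Zfp217 (-0.28), Zfp110 (-0.41) and Zfp69 (-0.29) downward on high fibre. On acetate they went to Zfp740 (0.46), Zfp410 (1.11) and Zfp618 (0.36) upward and Zfp352 (-0.28), Zfp831 (-0.25) and Zfp248 (-0.25) downward. Between high fibre and acetate they went to Zfp658 (0.39), Zfp568 (0.25) and Zfp352 (0.24) upward and Zfp26 (-1.28), Zfp62 (-0.51) and Zfp444 (-0.32) downward.

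Whether a diet acted differently in the tissues was tested as an interaction. edgeR called 0 of 336 Zfp windows for high fibre, beside 0.0559% of all windows, and 0 for acetate, beside 0%. At an unadjusted p under 0.05 there were 59 Zfp windows for high fibre (17.6%, background 16.4%) and 11 for acetate (3.27%, background 4.57%). DESeq2 called 1 for high fibre, and without spleen control replicate 1 edgeR called 8. Heart and spleen titles share numbers, and the labels do not state whether a number marks 1 mouse, so this fit takes the libraries as separate. Zfp280d had a log2 fold change of 0.70 in heart and 0.04 ± 0.170 in spleen, and the difference of 0.66 ± 0.219 did not pass (edgeR adjusted p = 0.181). Zfp408 had -0.84 in heart and -0.05 ± 0.229 in spleen, a difference of -0.78 ± 0.332 (edgeR adjusted p = 0.251). Each such difference is the diet's log2 fold change in heart minus that in spleen, so it is not a change in heart alone. Beside Zfp626, the smallest p for high fibre went to differences above 0 at Zfp959 (2.31), Zfp91 (2.14) and Zfp942 (2.10). Below 0 they went to Zfp658 (-0.80) and Zfp865 (-0.82). For acetate the smallest p went to Zfp931 (1.08), Zfp352 (0.45) and Zfp30 (0.39) above 0. Below 0 they went to Zfp787 (-2.31), Zfp772 (-1.83) and Zfp410 (-1.19).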

How the data were processed

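DNA was sonicated, captured with MethylMiner (a methyl-CpG binding protein) and sequenced, per the labels' protocols. The authors deposited raw read counts per window of 3 kb for each library, 1 table per tissue. The submitters' processing notes name genome build GRCm38, the aligner BWA (0.7.10), the read counter featureCounts (1.5.1), the demultiplexer bcl2fastq (2.19.1.403) and edgeR (3.16.5). How windows are centred and how duplicate or multiply aligned reads were counted is not given in the sources used here.

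All tests were fitted on whole tables with edgeR 4.0.16 in R 4.3.3 (TMM factors, filterByExpr at a minimum count of 10, quasi-likelihood test, prior count 2, Benjamini-Hochberg adjusted p under 0.05 over all windows). Diets were compared within a tissue, where the 3 diets share the estimate of spread. Tissues and interactions were fitted over all 23 libraries. SE is the log2 fold change over the square root of F. Of 361 Zfp windows 27 in heart, 101 in spleen and 25 in the joint fit did not pass the filter. Alternatives used DESeq2 1.42.0, limma 3.58.1 and sva 3.50.0, and the scripts ran in Python 3.11.15. The tests were checked on simulated counts. RefSeq tables of GRCm38.p6 gave gene positions and promoters, and 358 Zfp windows matched by symbol, 2 by synonym and 1 did not match.

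The members and gene lists were chosen with earlier results of these data known. Named windows were the 10 per direction of smallest p in each comparison (3 per direction where none passed), for tissues the 10 per direction of largest change above the median abundance, 14 known genes, and the 5 highest and lowest per tissue, the lowest taken among tested windows. Abundance ranges, counts of groups that do not overlap, promoter limits, neighbouring starts and limma voom were added after the data were seen. Libraries of the same replicate number in different groups did not deviate together in every pair (correlations -0.18 to 0.59). Nor did heart and spleen libraries of the same title number (-0.068 to 0.385). Neither number was therefore treated as marking pairs, and the labels do not state what the shared title numbers mean. No libraries agreed within sampling noise.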

Additional observations from a re-analysis of the deposited data

Results flagged for a closer look

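In 310 groups of 4 libraries at the windows named, 25 had a library further from the others than Dixon's test allows, and chance flags about 1 in 20 groups. Levels scaled within a tissue come first. In high fibre hearts replicate 2 was low at Zfp276 (42.0 CPM) and replicate 3 high at Zfp809 (21.4 CPM). In control hearts replicate 1 was low at Zfp809 (19.8 CPM) and replicate 4 low at Zfp114 (16.4 CPM). In high fibre spleens replicate 1 was low at Zfp217 (17.5 CPM) and replicate 3 low at Zfp683 (8.74 CPM). In acetate spleens replicate 3 was low at Zfp809 (14.3 CPM), replicate 1 high at Zfp658 (9.16 CPM) and replicate 2 high at Zfp26 (3.87 CPM). In control spleens replicate 4 was high at Zfp69 (20.9 CPM) and at Zfp318 (30.01 CPM).

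Scaled over both tissues, high fibre heart replicate 4 was low at Zfp651 (1.80 CPM) and replicate 3 high at Zfp809 (14.1 CPM). Control heart replicate 3 was high at Zfp850 (25.5 CPM) and replicate 1 low at Zfp809 (13.1 CPM). High fibre spleen replicate 1 was high at Zfp651 (31.6 CPM) and Zfp579 (178.2 CPM), and replicate 2 at Zfp281 (1.14 CPM). Acetate spleen replicate 4 was high at Zfp629 (113.0 CPM), replicate 2 high at Zfp36 (4.10 CPM) and replicate 1 low at Zfp683 (15.8 CPM). Control spleen replicate 1 was high at Zfp579 (228.3 CPM) and Zfp462 (244.4 CPM) and low at Zfp868 (3.73 CPM), and replicate 4 was high at Zfp281 (0.215 CPM). The tests were repeated without these libraries, and the tissue calls of Zfp579, Zfp462, Zfp651, Zfp850, Zfp868 and Zfp629 held. For Zfp276 the call against control hearts held without high fibre replicate 2. Its call against acetate hearts was lost, as it was without each other high fibre library.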

How the results depend on the processing

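Values here are numbers of Zfp windows called or log2 fold changes. For high fibre against control hearts, 77 windows were called, and library totals alone gave 257, the spread of those diets alone 129 and 1 surrogate variable 0. For high fibre against acetate hearts, 4 were called, and the count was 0 with DESeq2 size factors in edgeR, limma voom, those diets alone or 1 surrogate variable, 11 without the low-count filter, 16 with DESeq2, and 22 with library totals (all higher) or with the replicate block. For acetate against control in spleen 1 surrogate variable gave 1. Cyclic loess called 168, 163 and 123 windows between heart and spleen on control, high fibre and acetate. For the tissue difference in the high fibre effect, library totals gave 66, DESeq2 1 and the replicate block 13. In the fits over both tissues the block was the title number that a heart and a spleen library share. Such libraries had correlations of -0.068 to 0.385. Within a tissue the block was the replicate number, which ties libraries of different diets, and it gave 94 for high fibre against control hearts.

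With each library left out in turn, counts ran from 28 to 131 for high fibre against control hearts, 0 to 9 for acetate against control hearts and 0 to 39 for high fibre against acetate hearts. They ran from 244 to 256, 252 to 272 and 183 to 235 for heart against spleen on control, high fibre and acetate. The tissue difference in the high fibre effect ran from 0 to 8. The spleen comparisons and the acetate difference remained at 0.

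The sign changes given here are those where the reported or the alternative value passed the test, and their cause was not tested. They came from scaling and from 1 surrogate variable. In high fibre against control hearts, Zfp40 had -0.021 with 1 surrogate variable. With library totals the values there were Zfp7 0.090, Zfp853 0.12, Zfp276 0.094, Zfp61 0.14, Zfp316 0.21, Zfp445 0.55, Zfp568 0.38, Zfp809 0.55, Zfp42 0.58, Zfp423 0.47, Zfp318 0.51 and Zfp683 0.26. In heart against spleen on control, library totals gave Zfp445 0.86, Zfp568 0.51, Zfp318 0.48 and Zfp683 0.71, and cyclic loess gave Zfp568 0.14, Zfp260 -0.088, Zfp521 -0.86 and Zfp318 0.22. On high fibre, library totals gave Zfp445 1.31, Zfp568 0.76, Zfp809 0.30, Zfp42 0.11, Zfp318 1.04 and Zfp683 0.93, and cyclic loess gave Zfp36 -0.46, Zfp260 -0.57, Zfp521 -0.51 and Zfp318 0.37. On acetate, library totals gave Zfp445 0.83, Zfp568 0.53, Zfp809 0.084, Zfp318 0.42 and Zfp683 0.75, and cyclic loess gave Zfp568 0.089 and Zfp318 0.083. Spleen windows hold fewer reads than heart windows, so 101 Zfp windows could not be tested there.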
